A study of Rattus norvegicus with 6 samples.

Results

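Complex II, or succinate dehydrogenase, was followed at the level of mRNA in rat hippocampal neurons in which the cell cycle protein cyclin Y (CCNY) was overexpressed or knocked down. The genes were taken by name and comprise the 4 subunits Sdha, Sdhb, Sdhc and Sdhd and the 4 assembly factors Sdhaf1, Sdhaf2, Sdhaf3 and Sdhaf4. The expression table lists 7 of these 8 genes among its 17066 genes, 6 of them under their current symbols and Sdhaf1 under the older symbol RGD1562079. Sdhaf4 had no row and was not analysed here. The set was chosen by the FPKM of Sdhaf3, which had been seen lower on overexpression and higher on knockdown, so the values of this gene in these comparisons are a description and carry no test. The other 6 genes were included for their names alone, to see whether the rest of the complex did the same.

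Complex II oxidises succinate to fumarate in the tricarboxylic acid (TCA) cycle and hands the electrons to ubiquinone in the respiratory chain, which makes it the one enzyme shared by both pathways. All of its subunits are encoded in the nucleus, imported into mitochondria and fitted with a flavin, iron-sulphur clusters and a haem, and dedicated assembly factors help with these steps. In neurons, succinate also arises from the GABA shunt, the route by which the inhibitory transmitter GABA is broken down.

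The cells were primary hippocampal neurons of Sprague-Dawley rats, prepared at embryonic day 18 and infected with lentivirus (FUGW vector) at 5 to 6 days in vitro. RNA was collected at day 14 in vitro. The 3 conditions, with 2 libraries each, were EGFP alone (the control), wild-type CCNY fused to EGFP (CCNY-WT), and a short hairpin RNA against CCNY with EGFP (CCNY-shRNA). Every library, the control included, therefore came from cultures that carried a lentiviral vector and EGFP, and the same 2 EGFP libraries served both comparisons. The labels name no separate cultures for the 2 libraries of a condition, so p-values measure the spread between these libraries, which may be technical.

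Values are FPKM, fragments per kilobase of transcript scaled to the number of mapped fragments. Ccny, the targeted gene, was at 43.1 and 42.3 FPKM in EGFP, 108 and 109 on overexpression and 5.98 and 6.19 on knockdown, in the direction of the labels in all 6 libraries. In CCNY-WT, transcripts of the construct and of the rat gene cannot be told apart. The FPKM of a library summed to between 543567 and 645435, and 9955 to 10002 genes reached an FPKM of 1. The summed FPKM of 8 neuronal markers lay between 4222 and 4459 in all libraries. Each of these markers reached an FPKM of 1 in at least 2 libraries, whereas all 6 microglial markers lay below 1 in every library. The sum of the 6 astrocyte markers listed was 372 to 387 in EGFP, 389 to 398 on overexpression and 307 to 377 on knockdown. The oligodendrocyte lineage sum was 44.2 to 44.5, 41.9 to 47.6 and 37.2 to 40.3 in the same order. Of 6 vascular and meningeal markers 5 lay below 1. The sum of all 6 was 13.7 to 17.7, most of it from the remaining marker, Dcn. The sum of 6 mitotic markers was 3.89 to 5.32.

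The subunits were abundant and similar to each other, and the assembly factors were lower. Per length, Sdhd was highest, with a mean of 146 FPKM over the 6 libraries, followed by Sdhb at 137, Sdhc at 120 and Sdha at 119. The ranges of neighbouring subunits over the libraries overlapped: Sdhd exceeded Sdhb in 5 of 6 libraries, Sdhb exceeded Sdhc in 6 of 6, and Sdhc exceeded Sdha in 3 of 6. In EGFP the 4 subunits lay between percentiles 90.6 and 92.9 of the tested genes. Sdhaf2, with a mean of 33.8 FPKM, and Sdhaf1, with 29.8, came next and overlapped in range. Sdhaf3, with a mean of 3.55 FPKM, was below both in every library and lay at percentile 16.8 in EGFP. The plot of FPKM by gene and library shows these 3 tiers.

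**Figure D1:**
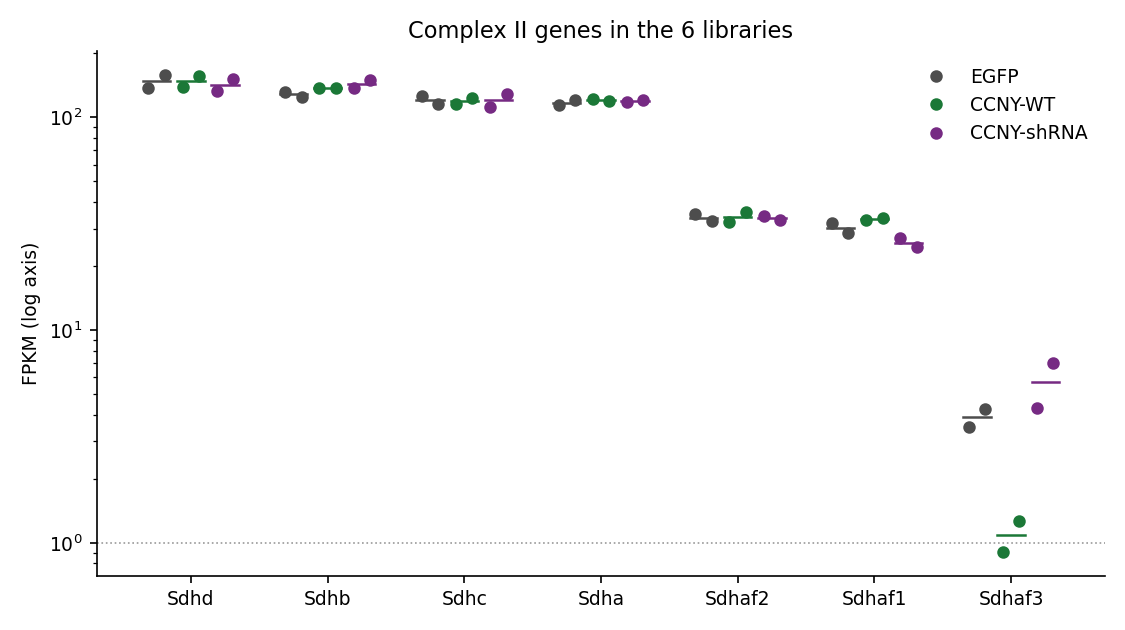
FPKM (log axis) of the 7 complex II genes in the 6 libraries, ordered by mean level. Points are libraries, short lines are the means of the 2 libraries of a condition, and the dotted line marks an FPKM of 1. The 4 subunits lie between 111 and 159 FPKM in every library, Sdhaf2 and Sdhaf1 between 24.5 and 36.0, and Sdhaf3 between 0.907 and 7.03.

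The promoters of the highest and the lowest gene of this order are shown because both contain the same short ETS motif, although their FPKM differ widely. The motif searched was CCGGAAG, or CTTCCGG on the other strand, the core bound by ETS family factors, some of which are known for regulating genes of mitochondrial enzymes. It was found in the 250 bases before the start of 5 of the 8 genes, namely Sdhb, Sdhd, Sdhaf1, Sdhaf2 and Sdhaf3, and in 7.74% of 27457 rat promoters of that length. Sequences are from RefSeq on the GRCr8 assembly, a later build than that of the expression data, 5′ to 3′ in the direction of transcription, with the ETS match in capitals. Sdhd lies on the minus strand at chr8:59850642-59850891 and Sdhaf3 on the plus strand at chr4:36066713-36066962.
Sdhd: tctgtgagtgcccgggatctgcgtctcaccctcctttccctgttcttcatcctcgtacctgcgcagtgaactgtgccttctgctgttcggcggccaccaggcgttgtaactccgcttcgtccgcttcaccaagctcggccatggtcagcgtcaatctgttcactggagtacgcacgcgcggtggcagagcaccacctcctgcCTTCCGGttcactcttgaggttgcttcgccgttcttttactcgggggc
Sdhaf3: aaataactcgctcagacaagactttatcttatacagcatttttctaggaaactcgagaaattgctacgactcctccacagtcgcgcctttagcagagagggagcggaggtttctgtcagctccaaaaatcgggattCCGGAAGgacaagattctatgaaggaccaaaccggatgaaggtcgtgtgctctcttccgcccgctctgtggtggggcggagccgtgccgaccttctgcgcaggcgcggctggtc
The match starts 48 bases before the Sdhd start and 114 bases before the Sdhaf3 start. The core of the NRF1 motif, GCATGCGC or GCGCATGC, was found in 2.38% of promoters and, of these 8 genes, only in front of Sdhb. The GC box, GGGCGG or CCGCCC, was found in 32.4% of promoters and in 5 of the 8, and CCAAT or ATTGG in 34.3%, and in 3 of the 8. These matches describe letters in a window and not bound sites.

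Differences between conditions were tested with limma on log2 FPKM, with FPKM below 1 set to 1, and p-values were adjusted over the 10188 genes that reached an FPKM of 1 in at least 2 libraries. A gene passed at an adjusted p under 0.05.

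Sdha carries the flavin and the succinate-binding site and is the catalytic subunit. Its FPKM was 114 and 120 in EGFP, 121 and 119 on overexpression and 118 and 121 on knockdown, with group means of 117 ± 4.47, 120 ± 1.39 and 120 ± 1.86 (SD, n = 2 each). It had the narrowest range of the 7 genes, 0.09 on the log2 scale between its lowest and highest library, against a median range of 0.33 over all 10188 genes tested. The log2 difference from EGFP was 0.04 (SE 0.05) in CCNY-WT and 0.03 (SE 0.05) in CCNY-shRNA, with 95% intervals of -0.08 to 0.16 and -0.09 to 0.15. Neither passed the threshold (limma, adjusted p = 0.911 and 0.800). In bulk RNA, a change in the share of a cell type and a change in RNA per cell cannot be told apart.

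Sdhb holds the iron-sulphur clusters that pass electrons from the flavin towards ubiquinone. It was at 132 and 124 FPKM in EGFP, 138 and 137 on overexpression and 138 and 150 on knockdown. Both libraries of each manipulated condition thus lay above both EGFP libraries. The log2 difference was 0.10 (95% interval -0.04 to 0.25) in CCNY-WT and 0.17 (0.03 to 0.31, a 1.12-fold level) in CCNY-shRNA, and neither passed the threshold after adjustment over all genes (limma, adjusted p = 0.801 and 0.202). Such separation of the libraries was common: 20.3% of the genes tested lay wholly above EGFP on overexpression and 23.9% on knockdown.

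Sdhc and Sdhd anchor the enzyme in the inner mitochondrial membrane and form, with Sdhb, the site where ubiquinone is reduced. Sdhc was at 125 and 116 FPKM in EGFP, 116 and 123 on overexpression and 111 and 129 on knockdown. Sdhd was at 137 and 159, 139 and 157, and 132 and 151 in the same order. For both genes the libraries of all 3 conditions overlapped, and the spread within a condition was wider than the distance between the condition means. For Sdhc the log2 difference from EGFP was -0.01 in CCNY-WT (95% interval -0.20 to 0.17) and -0.01 in CCNY-shRNA (-0.19 to 0.18). That of Sdhd was 0.000562 (-0.23 to 0.23) and -0.06 (-0.29 to 0.16). Adjusted p-values (limma) were 0.983 and 0.974 for Sdhc and 1 and 0.784 for Sdhd.

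Across the 4 subunits, the 95% intervals together spanned folds of 0.855 to 1.19 in CCNY-WT and 0.819 to 1.24 in CCNY-shRNA. When each gene was divided by the geometric mean of the subunits in its own library, Sdha stayed between 0.882 and 0.95, Sdhb between 0.966 and 1.11, Sdhc between 0.895 and 0.989 and Sdhd between 1.06 and 1.23. The balance of the subunit mRNAs therefore varied little among the libraries of all 3 conditions.

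Sdhaf2 is needed for attaching the flavin to Sdha. It was at 34.96 and 32.4 FPKM in EGFP, 32.3 and 36.0 on overexpression and 34.4 and 32.7 on knockdown, so the conditions overlapped. The log2 difference was 0.02 (95% interval -0.17 to 0.20) in CCNY-WT and -0.00445 (-0.19 to 0.18) in CCNY-shRNA (limma, adjusted p = 0.975 and 0.988).

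Sdhaf1 belongs to the LYR motif family and acts in the insertion of iron-sulphur clusters into Sdhb. It was at 31.9 and 28.7 FPKM in EGFP, 33.0 and 33.7 on overexpression and 27.0 and 24.5 on knockdown, with group means of 30.3 ± 2.205, 33.3 ± 0.499 and 25.8 ± 1.79 (SD, n = 2 each). Both CCNY-shRNA libraries lay below the other 4, and both CCNY-WT libraries lay above both EGFP libraries. The log2 difference from EGFP was 0.14 in CCNY-WT (95% interval -0.05 to 0.33, adjusted p = 0.801) and -0.23 in CCNY-shRNA (-0.43 to -0.04, a 0.851-fold level, adjusted p = 0.195), both by limma. Between CCNY-shRNA and CCNY-WT it was -0.37 (95% interval -0.57 to -0.18, a 0.772-fold level), with an unadjusted p of 0.00221 and an adjusted p of 0.170 (limma). Of all genes tested, 24.5% lay wholly below EGFP in CCNY-shRNA and 21.9% wholly below CCNY-WT. Relative to the subunit mean of the same library, Sdhaf1 was at 0.251 and 0.223 in EGFP, 0.258 and 0.253 on overexpression and 0.217 and 0.179 on knockdown. The summed oligodendrocyte lineage markers were also lower in both CCNY-shRNA libraries than in the other 4, and the astrocyte sum had its lowest value in this condition while overlapping EGFP. The part of these cells in the Sdhaf1 values was not tested.

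Counted together, 0 of the 6 testable complex II genes passed the adjusted threshold of 0.05 in any of the 3 comparisons by limma. At an unadjusted p under 0.05 the numbers were 0 in CCNY-WT against EGFP, 2 in CCNY-shRNA against EGFP (Sdhb higher and Sdhaf1 lower) and 1 in CCNY-shRNA against CCNY-WT (Sdhaf1). Over all 10188 genes tested, the adjusted threshold was passed by 1 gene or 0.00982% in the first comparison, 76 or 0.746% in the second and 22 or 0.216% in the third (0.0196% higher and 0.196% lower). An unadjusted p under 0.05 was reached by 6.83%, 18.6% and 12.2% of genes. The median log2 difference of the 6 genes was 0.03 in CCNY-WT and -0.00647 in CCNY-shRNA, beside medians over all genes tested of 0.00410 in the first comparison and indistinguishable from 0 in the second. The plot of differences shows that only the intervals of Sdhb and Sdhaf1 against EGFP, and of Sdhaf1 between the manipulated conditions, leave out 0 before adjustment.

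**Figure D2:**
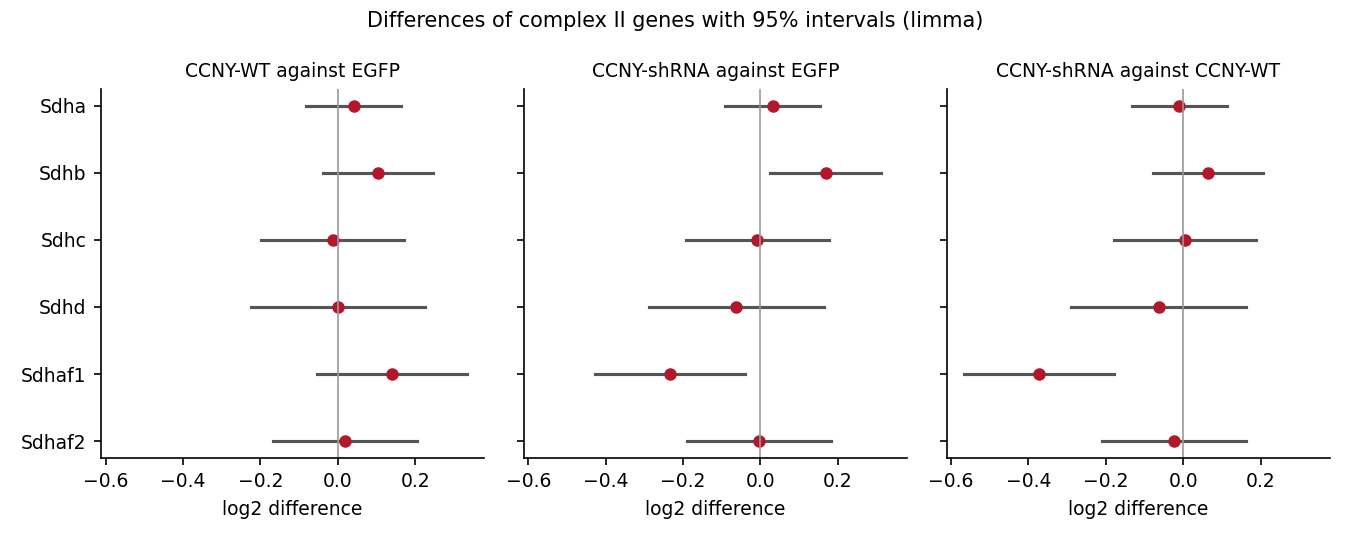
Log2 differences (points) with unadjusted 95% intervals (lines) from limma for the 6 complex II genes other than Sdhaf3, in the 3 comparisons. The 4 subunits stay within -0.29 and 0.31 in the comparisons with EGFP, and Sdhaf1 lies at -0.37 in CCNY-shRNA against CCNY-WT.

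Sdhaf3, like Sdhaf1 a LYR motif protein that acts in the maturation of Sdhb, was the one gene of the set with a wide range. Its FPKM was 3.52 and 4.26 in EGFP, 0.907 and 1.27 on overexpression and 4.32 and 7.03 on knockdown. The conditions did not overlap: both CCNY-WT libraries were lowest and both CCNY-shRNA libraries highest, the lower of them only just above the higher EGFP library. The difference of the mean log2 values, with FPKM below 1 set to 1, was -1.78 in CCNY-WT (a 0.291-fold level) and 0.51 in CCNY-shRNA (1.42-fold), and CCNY-shRNA was 2.29 above CCNY-WT. Without CCNY-shRNA replicate 2 the difference on knockdown was 0.16, and without CCNY-shRNA replicate 1 it was 0.86. These values chose the gene set and are given without a test. Non-overlap of this kind was shared by 19.2% of genes tested below EGFP in CCNY-WT and 23.9% above it in CCNY-shRNA. Its log2 range over the 6 libraries was 2.81, and relative to the subunit mean Sdhaf3 ran from 0.00708 to 0.0513.

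At thresholds of 0.3 below EGFP in CCNY-WT and 0.33 above it in CCNY-shRNA, 13 of 17066 genes (0.0762%) met both, Sdhaf3 among them by its selection. Singly, 2.31% of genes lay past the threshold below EGFP in CCNY-WT and 2.8% above it, against 4.58% below and 3.34% above in CCNY-shRNA, and of the complex II genes only Sdhaf3 passed either. The other genes that met both were Eif4ebp1, Fadd, Hpgd, Il18bp, LOC500959, Leap2, Med8, Perp, Tnnc1, Tpmt, Trib3 and Znrd1as1. Both comparisons share the EGFP libraries. With log2(FPKM + 1) in place of the floor, an alternative added after the data were seen, 6 genes met both thresholds, of which Sdhaf3, Leap2 and LOC500959 also did so with the floor and LOC502176, Nrl and Plaur did not. Among the 13 genes Sdhaf3 had the lowest difference in CCNY-WT, followed by Leap2 at -0.78, and 4 genes had a higher one in CCNY-shRNA, up to 1.09. This order uses the values that chose Sdhaf3 and is a description only.

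The Sdhaf3 values fitted very small numbers of sequenced fragments. Low FPKM values rise in steps of 1 fragment, and from these steps in 146 to 186 genes per library the depth of the libraries relative to EGFP replicate 1 was put at 1.09 for EGFP replicate 2, 1.33 and 0.933 for CCNY-WT and 0.818 and 1.15 for CCNY-shRNA. Multiplying FPKM by relative depth undoes the scaling to depth and returns values in proportion to fragment numbers. The unit of 1 fragment was then set by the smallest whole numbers that fit, with the highest library fixed at 7. In units of 1 fragment, Sdhaf3 stood at 3.04 and 4.01 in EGFP, 1.04 and 1.02 on overexpression and 3.06 and 7 on knockdown. The nearest whole numbers are 3, 4, 1, 1, 3 and 7, or 19 fragments over the 6 libraries, none further than 0.0558 from its value. They are the smallest that fit, and larger numbers in the same proportion would fit too. Among 2205 genes with a highest FPKM between 3 and 10, 19 (0.862%) fitted whole numbers of at most 7 within 0.1. The other complex II genes lay above this FPKM range. With this unit a single fragment of Sdhaf3 was worth 1.17 FPKM in EGFP replicate 1. The median was 0.0743 over the genes below an FPKM of 0.3, which by their choice cannot have steps above 0.3. The distance between these values is therefore no test of the unit.

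With these fragment numbers, the exact 95% Poisson interval was 0.726 to 10.3 FPKM and 1.16 to 10.9 FPKM in the EGFP libraries, 0.0230 to 5.06 and 0.0321 to 7.07 in the CCNY-WT libraries, and 0.891 to 12.6 and 2.82 to 14.5 in the CCNY-shRNA libraries. The intervals of all 6 libraries overlapped. Intervals this wide can overlap whether or not levels differ, so the overlap is no test. Summed over a condition, and not corrected for depth, there were 7 fragments in EGFP, 2 on overexpression and 10 on knockdown. Their exact 95% Poisson intervals were 2.81 to 14.4, 0.242 to 7.22 and 4.80 to 18.4 fragments. These intervals cover counting error only, hold for the smallest whole numbers, and describe a gene chosen for its pattern. The plot of fragment units shows how far they reach.

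**Figure D3:**
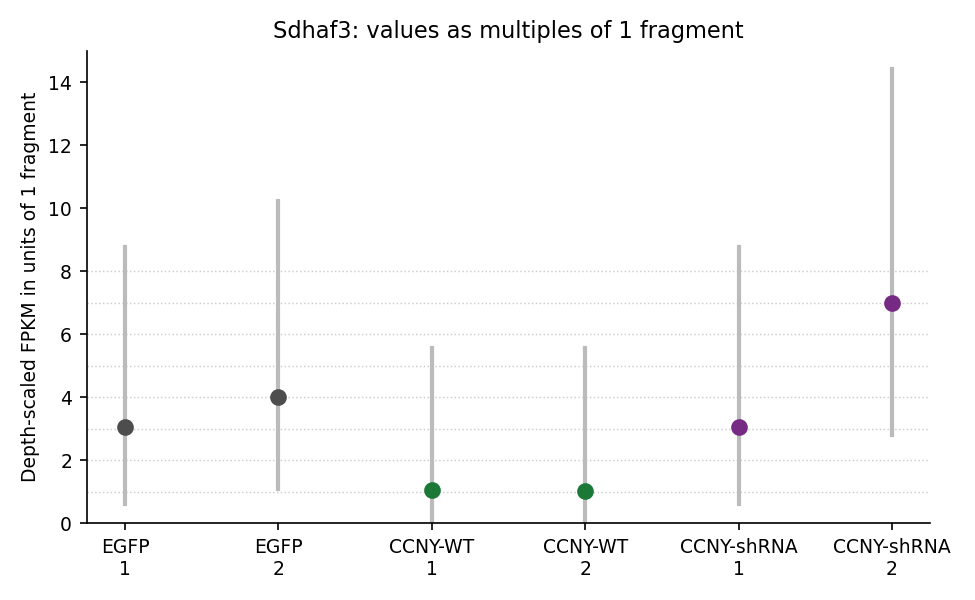
Sdhaf3 in each library, as FPKM multiplied by relative depth, in units of 1 fragment (points). Bars are exact 95% Poisson intervals of the nearest whole numbers. The points lie at 3.04, 4.01, 1.04, 1.02, 3.06 and 7. All 6 intervals share the values from 2.81 to 5.57 fragments, which is not a test. The whole numbers are the smallest that fit, and the intervals hold only for them. Points and intervals are not corrected for the depth of a library.

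Of the listed genes nearest to Sdhaf3 on its chromosome, none had both CCNY-WT libraries below and both CCNY-shRNA libraries above the EGFP libraries. On either side in the RefSeq gene table are Dlx5, a homeobox factor of GABAergic neurons, and Tac1, the precursor of substance P. Dlx5 was at 4.75 and 4.22 FPKM in EGFP, 4.12 and 4.64 on overexpression and 4.44 and 2.78 on knockdown. Tac1 was at 23.0 and 26.3, 23.9 and 26.4, and 21.4 and 20.9 in the same order. These libraries overlapped between EGFP and CCNY-WT for both genes. On knockdown both Tac1 libraries lay below both EGFP libraries, as was so for 24.5% of genes tested. Next beyond them was Sem1, a small proteasome subunit. It was at 155 and 163 FPKM in EGFP, 165 and 180 on overexpression and 174 and 207 on knockdown. Both manipulated conditions thus lay above EGFP, as did 20.3% of genes tested on overexpression and 23.9% on knockdown. Asns, asparagine synthetase, was at 55.95 and 53.2, 54.5 and 54.7, and 53.9 and 59.0 in the same order, with overlap of all 3 conditions.

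The 5 genes whose log2 profile lay nearest to that of Sdhaf3 were Gng12, S100a13, Rpl39l, Leap2 and Nxt1, at root mean square differences of 0.55 to 0.69 over the 6 libraries and Pearson's r of 0.756 to 0.95. S100a13, an S100 calcium-binding protein, was at 4.64 and 5.81 FPKM in EGFP, 2.66 and 3.12 on overexpression and 4.26 and 5.99 on knockdown. Gng12, a G protein gamma subunit, was at 2.28 and 3.57, 1.48 and 0.350, and 2.39 and 3.098. All 5 were, like Sdhaf3, weakly expressed genes, and Leap2, listed at 0 in 3 libraries, also fitted whole numbers of at most 7 fragments. Among the complex II genes, Pearson's r over the same 6 libraries ran from -0.88 (Sdhaf1 with Sdhaf3) to 0.45 (Sdhb with Sdhc). For pairs of subunits it ran from -0.21 to 0.45. These correlations describe 6 libraries that differ in depth and condition and are given without a p. Those with Sdhaf3 use the values that chose the set and by themselves show no relation between genes.

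The enzymes around complex II are described from lists of the surrounding pathways. For each list, genes with the lowest and the highest differences from EGFP are named, as log2 differences. Except for Gad2 none of them passed the adjusted threshold. Some of these differences changed sign when 1 library was left out: those of Idh2, Abat, Suclg1, Dhodh, Etfa, Prodh, Slc25a37, Flad1, Nubpl, Cox16 and Ndufb2 on overexpression and of Gpd2, Slc25a32 and Atp5f1e on knockdown. Of the other TCA cycle enzymes 18 were tested, and 0 passed the adjusted threshold by limma in either comparison with EGFP, none of them below 0.05 before adjustment. On overexpression 14 of the 18 differences were above 0 with a median of 0.03, and on knockdown 8 were, with a median of -0.01. Among all genes tested, 51.4% and 50.2% of differences were above 0. The lowest and highest on overexpression were citrate synthase (Cs) at -0.08, Dld, the lipoamide dehydrogenase, at -0.06, the isocitrate dehydrogenase Idh2 at 0.10 and Suclg2, a subunit of succinyl-CoA synthetase, at 0.14. On knockdown they were Pdhx at -0.13, Dlat at -0.12 and Pdha1 at 0.10, all of the pyruvate dehydrogenase complex, and Suclg1, the partner of Suclg2, at 0.16. The step before complex II and the complex itself thus differed from EGFP by small amounts that did not pass the test.

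Of the genes of succinate transport and the GABA shunt 8 were tested, and 1 passed the threshold. Gad2, a glutamate decarboxylase that makes GABA, was at 170 and 173 FPKM in EGFP, 176 and 181 on overexpression and 129 and 129 on knockdown. It fell by 0.41 on the log2 scale (SE 0.05) in CCNY-shRNA (limma, adjusted p = 0.0226), where 0.579% of all genes tested were called lower. The call was lost when any 1 library was left out, with no filter on low values, without a trend in the variance and with only the 4 libraries compared (adjusted p up to 0.316), while the difference stayed between -0.43 and -0.40 in every alternative. Between CCNY-shRNA and CCNY-WT Gad2 fell by 0.46 (limma, adjusted p = 0.0165), where 0.196% of genes were called lower, and this call was kept in 6 of 15 alternatives. On knockdown Aldh5a1, which oxidises succinic semialdehyde to succinate at the end of the shunt, was at -0.18, and the dicarboxylate carrier Slc25a10 at 0.16, and neither passed. On overexpression 0 of the 8 passed, none of them below 0.05 before adjustment, with a median of 0.06. There Abat, the GABA transaminase, was at -0.01, Suclg1 at 0.03, Slc25a10 at 0.09 and Suclg2 at 0.14.

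Other dehydrogenases and the electron transfer flavoprotein also bring electrons towards ubiquinone. Of their 6 tested genes 0 passed (limma), with 0 on overexpression and 1 on knockdown below 0.05 before adjustment. Their medians were 0.03 and 0.04. Prodh, proline dehydrogenase, was at 0.18 on overexpression and -0.47 on knockdown. The latter was -0.09 without EGFP replicate 2 and -0.84 without EGFP replicate 1. Gpd2, the mitochondrial glycerol-3-phosphate dehydrogenase, was at -0.15 on overexpression and -0.10 on knockdown. Dhodh, of pyrimidine synthesis, was at -0.15 on overexpression. Etfa, a subunit of the electron transfer flavoprotein, was at 0.14 and 0.18, and its partner Etfb was at 0.23 on knockdown. The supply of the flavin cofactor was covered by 4 tested genes, of which 0 passed (limma), with 0 and 2 below 0.05 before adjustment and medians of 0.15 and 0.06. The riboflavin transporter Slc52a2 was at -0.16 on overexpression and -0.50 on knockdown. In the same order Rfk, riboflavin kinase, was at 0.14 and 0.22, Flad1, FAD synthase, at 0.15 and 0.26, and Slc25a32, a mitochondrial carrier of folate and FAD, at 0.29 and -0.09. The direction of these 4 genes was thus mixed.

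Iron-sulphur cluster assembly was covered by 16 tested genes, and 0 passed (limma), with 0 on overexpression and 1 on knockdown below 0.05 before adjustment. Their medians were 0.08 and 0.03, with 12 and 9 of 16 above 0. On overexpression ferredoxin reductase (Fdxr) was at 0.35 and the mitochondrial iron importer Slc25a37 at 0.41. On knockdown Hscb, a cochaperone of cluster transfer, was at -0.31, the late-acting factor Isca2 at 0.30 and the iron importer Slc25a28 at 0.33. Other proteins of the LYR motif family, to which Sdhaf1 and Sdhaf3 belong, gave 0 calls among 7 tested (limma), with 1 and 0 below 0.05 before adjustment and medians of 0.01 and 0.07. Lyrm2, a complex I factor, was at -0.31 on overexpression (limma, unadjusted p = 0.00696, adjusted p = 0.670), and the ATP synthase factor Fmc1 at -0.20. The complex I subunits Ndufb9 and Ndufa6, which carry the motif, were at 0.13 and 0.14 on overexpression and 0.15 and 0.16 on knockdown. Lyrm9 and Lyrm7, the latter a complex III factor, were at -0.23 and -0.16 on knockdown.

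Assembly factors of the other complexes gave 0 calls among 31 tested by limma, with 2 and 5 below 0.05 before adjustment and medians of 0.05 and 0.03. On overexpression Nubpl, of complex I, was at -0.29 and Cox16 at -0.18, and on knockdown Cox20 was at -0.62 and Cox11 at -0.32, all 3 of them factors of cytochrome c oxidase. The copper chaperone Cox17 was at 0.23 on overexpression and 0.48 on knockdown (limma, adjusted p = 0.0634 in the latter), Cox18 at 0.48 on overexpression and Coa4 at 0.54 on knockdown. Both ends of this list held factors of cytochrome c oxidase, which make up a large part of it, while Nubpl was the lowest on overexpression.

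The subunits of complexes I, III and IV and of ATP synthase were a list of 65 tested genes, also with 0 calls by limma and with 4 and 14 below 0.05 before adjustment. Of these, 53 were above 0 on overexpression (median 0.05) and 58 on knockdown (median 0.11). The latter count rested on 1 library: without CCNY-shRNA replicate 2 it was 33 of 65 with a median of 0.00740, and without CCNY-shRNA replicate 1 it was 63 with a median of 0.19. Without CCNY-WT replicate 2 the overexpression median was 0.03, with 41 above 0, and without CCNY-WT replicate 1 it was 0.09, with 59 above 0. Of complex I, Ndufs6 was at -0.25 on overexpression and 0.30 on knockdown, Ndufb2 at -0.04 and Ndufb7 at 0.27 on overexpression, and Ndufs4 at -0.31 and Ndufs1 at -0.11 on knockdown. Of ATP synthase, Atp5pd was at 0.22 on overexpression and Atp5f1e at 0.31 on knockdown. Atp5f1e was at 8.98 and 7.25 FPKM in EGFP and at 6.12 and 16.3 on knockdown, and without CCNY-shRNA replicate 2 its difference was -0.40. The plot of lists sets the 6 complex II genes beside these groups.

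**Figure D4:**
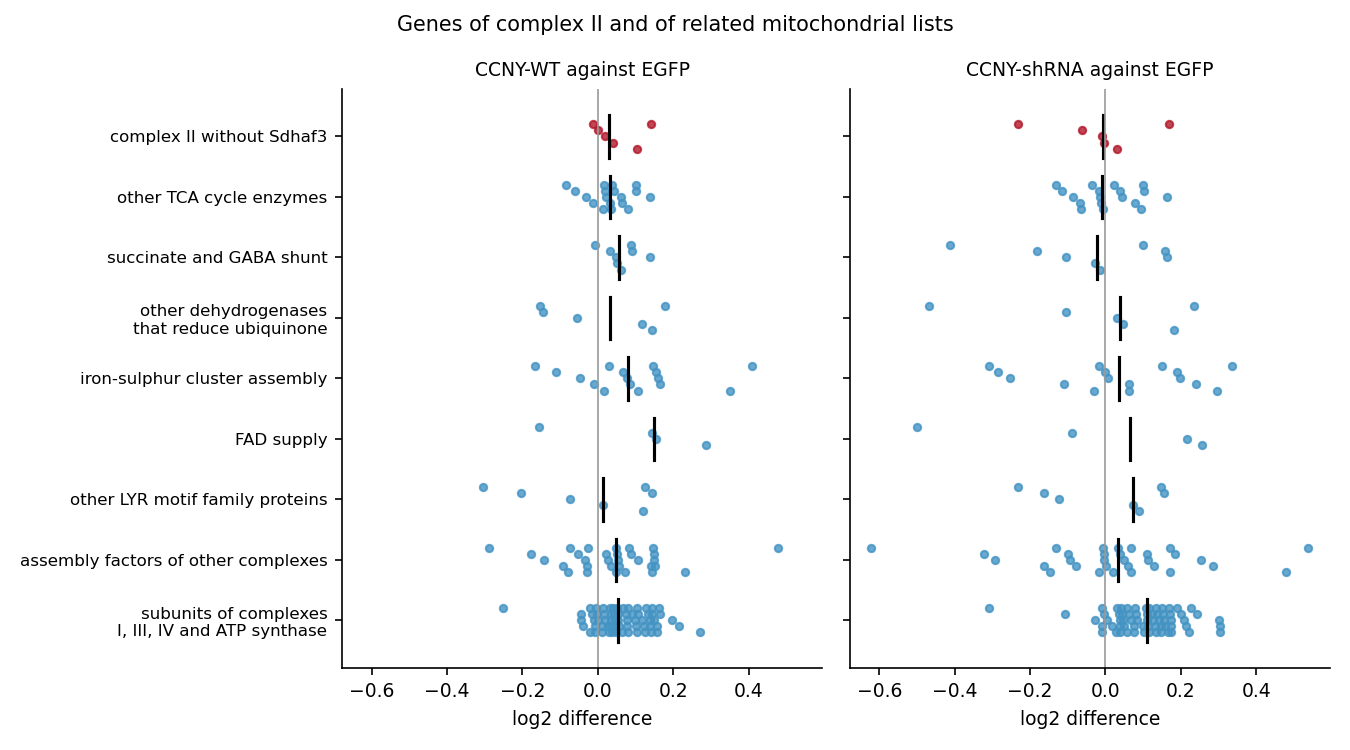
Log2 differences from EGFP of each tested gene (points) in CCNY-WT (left) and CCNY-shRNA (right), for the complex II genes other than Sdhaf3 (red) and for 8 related lists (blue), with list medians as black bars. The medians lie between 0.01 and 0.15 in CCNY-WT and between -0.02 and 0.11 in CCNY-shRNA.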

How the data were processed

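RNA was poly(A)-selected and sequenced as 150-bp paired-end reads. The authors mapped the reads to rat genome rn4 with TopHat2 and calculated expression with Cufflinks. The deposited values are FPKM by gene (17066 in all) and library (version numbers in the submitters' notes: TopHat2 2.0, Bowtie2 2.1.0, Cufflinks 2.2.1). Which annotation was used, and whether libraries were scaled to each other, is not given in the sources used here. Of the symbols, 16617 matched RefSeq names, and the tables of a later assembly supplied names, gene order and promoters only. The library depth is unknown, and relative depth was read from the steps of low FPKM.

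The study's methods speak of FPKM floored to 1 and then put on a log2 scale, which was taken here as setting lower values to 1. The wording does not settle whether 1 was instead added to each value, so log2(FPKM + 1) was run as an alternative. The counts and genes past the fold thresholds with the floor are therefore not offered as those of the study. limma 3.58.1 in R 4.3.3 (lmFit, contrasts.fit, eBayes with a trend) was fitted to the 6 libraries over the 10188 genes that reached an FPKM of 1 in at least 2 of them, which included all 7 listed complex II genes. P-values were adjusted over all genes (Benjamini-Hochberg, threshold 0.05), and intervals are unadjusted. The fit was tested on simulated data. Python 3.11.15, pandas 2.3.3, numpy 2.4.6, scipy 1.17.1 and matplotlib 3.10.9 were used for the rest.

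The complex II genes, the lists and the tests were chosen with earlier results of these data known. Named genes were Ccny, all complex II genes, of each other list the genes past the threshold and the 2 highest and 2 lowest differences in each comparison with EGFP, the 5 profiles nearest to Sdhaf3 and the 2 nearest listed genes on each side of it. The 13 genes that met both fold thresholds were named after their values were seen, as were the tolerance of 0.1 and the limit of 7 fragments set. Alternatives changed the offset, filter, scaling, trend, libraries and replicate block, and those for Ccny and Gad2 were added after seeing the data. Some genes that this rule names are not reported here.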

Additional observations from a re-analysis of the deposited data

How the results depend on the processing

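None of the 6 tested complex II genes passed the adjusted threshold under any of the 15 alternatives tried (lowest limma adjusted p = 0.134, Sdhb in CCNY-shRNA against EGFP). Sdhaf1 kept its sign in every one, with adjusted p of 0.167 to 0.483 in CCNY-shRNA against EGFP and 0.153 to 0.610 against CCNY-WT. Differences near 0 changed sign: under quantile normalization Sdhd was at -0.019 in CCNY-WT against EGFP and Sdhc at -0.016 in CCNY-shRNA against CCNY-WT. With each library left out in turn, differences in CCNY-WT ran from -0.071 to 0.045 for Sdhc, -0.11 to 0.11 for Sdhd and -0.059 to 0.10 for Sdhaf2. In CCNY-shRNA they ran from -0.0073 to 0.071 for Sdha, -0.11 to 0.094 for Sdhc, -0.17 to 0.043 for Sdhd and -0.059 to 0.051 for Sdhaf2. Between CCNY-shRNA and CCNY-WT they ran from -0.026 to 0.0058 for Sdha, -0.10 to 0.11 for Sdhc, -0.16 to 0.031 for Sdhd and -0.10 to 0.054 for Sdhaf2.

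The Sdhaf3 difference was -1.23 in CCNY-WT and 1.65 between CCNY-shRNA and CCNY-WT with log2(FPKM + 1), an offset that shrinks low values. With 1 library left out it ran from -1.95 to -1.61 in CCNY-WT, from 1.94 to 2.64 between the manipulated conditions and from 0.16 to 0.86 in CCNY-shRNA, where the lowest, without CCNY-shRNA replicate 2, was under the threshold of 0.33 and the highest was without CCNY-shRNA replicate 1.

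The count of all genes past the adjusted threshold in CCNY-WT against EGFP, 1, became 3 with log2(FPKM + 1) and 3 with a mean FPKM of at least 1, and ran from 0 to 1 with a library left out. In CCNY-shRNA against EGFP the 76 became 2 with no filter, 1 without a trend, 1 with only the 4 libraries compared, and 1 to 7 with a library left out. Between CCNY-shRNA and CCNY-WT the 22 became 2, 1, 1 and 1 to 8. Past the fold thresholds, 872 genes in CCNY-WT and 1352 in CCNY-shRNA became 817 (442 higher and 375 lower) and 1200 (529 and 671) with log2(FPKM + 1), 2918 and 3402 with log2(FPKM + 0.1), and 872 to 1456 and 1352 to 1771 with a library left out. Ccny passed in 12 of 15 alternatives in CCNY-WT and 15 of 15 in CCNY-shRNA, and Gad2 in 6 of 15 in CCNY-shRNA (adjusted p = 0.0171 to 0.316). The causes were not tested.

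Deviations of same-numbered libraries correlated at 0.04 to 0.05 across genes, so the numbers were not shown to pair the libraries. With the replicate block, 39 genes passed in CCNY-shRNA against EGFP, and no complex II gene did.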
